A study of Rattus norvegicus with 16 samples.

Results

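The training response of soleus was measured in rats of the low capacity runner line (LCR), with 4 trained rats set against 4 sedentary rats across all 31042 probe sets that are not array controls. They are 8 of the 16 arrays of the series, which holds 4 groups of 4 rats, the other 8 being trained and sedentary rats of the high capacity runner line (HCR). The comparison asks how the muscle transcriptome of animals bred for poor running answers to aerobic training.

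LCR trained rats were female, of generation 16 of selection for low treadmill running, and about 7 months old. They had run uphill intervals on a treadmill inclined by 25 degrees, in sessions of 1.5 hours on 5 days a week for 8 weeks, alternating 8 minutes at 85 to 90% of maximal oxygen uptake with 2 minutes of lighter running, and muscle was taken 48 hours after the last session. LCR sedentary rats were female, of the same line, generation and age, and were neither trained nor tested for oxygen uptake, so the trained group differs from them by the weekly uptake tests as well as by the training. HCR trained and HCR sedentary rats had the same sex, generation, age and programmes and enter here only in the shared estimate of spread and where the LCR response is set beside theirs. No allele, transgene or drug is named in the labels. Each array held the soleus of 1 rat, the selection lines are outbred stocks and not inbred strains, and cages, litters and families are not given in the sources used here.

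Soleus is a postural muscle built mainly of slow, oxidative fibres, with capillaries, matrix, satellite cells, nerve and scattered immune and fat cells around them. Endurance training is known to raise the mitochondrial content and the capillary supply of muscle, in part through the coactivator PGC-1alpha, calcium signalling through calcineurin, and vascular growth factors. Most exercise-induced transcripts peak within hours of a bout, so muscle sampled after rest shows mainly what remains of the repeated stimulus.

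The labelled tissue matched its markers. The 6 slow fibre markers, Myh7, Tnnt1, Tnni1, Tnnc1, Myl2 and Myl3, averaged 14.15 to 14.20 on the log2 scale on the trained arrays and 14.15 to 14.23 on the sedentary arrays, and each ranked among the brightest signals of the array. Myh4, the type IIB fast myosin, read 5.28 ± 0.46 in trained rats and 5.02 ± 0.13 in sedentary rats (SD, n = 4 each), below the 40th percentile of probe set means, 5.61. Pairs of LCR arrays correlated at 0.971 to 0.996 over probe sets, and no 2 arrays held identical values. A principal component analysis of the 8 LCR arrays gave a leading axis with 40.9% of the variance and scores of 16.2, 31.6, 11.4 and 1.89 in trained rats 1 to 4 and -41.4, -23.3, 2.09 and 1.46 in sedentary rats 1 to 4 (two-sided exact permutation p = 0.0571, adjusted 0.343 over 6 array measures by Benjamini-Hochberg, smallest possible p 0.0286). Sedentary rats 1 and 2 therefore lay apart from the other 6 on that axis. The beta-actin index, the signal of the 3' control probe set minus that of the middle one, was 1.33, 1.06, 1.36 and 1.33 in trained rats 1 to 4 and 2.07, 1.71, 1.33 and 1.51 in sedentary rats 1 to 4 (exact permutation p = 0.114, adjusted 0.343), so it was also highest in sedentary rats 1 and 2. Values without those 2 arrays are given below where they move a named gene or a list median most.

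Cox7a1 was the 1 probe set that passed the threshold, an adjusted p under 0.05 in limma's moderated test with Benjamini-Hochberg adjustment over all probe sets (1 of 31042, or 0.00322%, with 0 lower). Cox7a1 encodes the heart and skeletal muscle form of a nuclear-encoded subunit of cytochrome c oxidase, the last complex of the respiratory chain. Its expression read 8.63, 8.19, 8.19 and 8.29 in trained rats 1 to 4, against 6.81, 7.12, 6.74 and 5.94 in sedentary rats 1 to 4. The groups did not overlap, and the gap between the lowest trained and the highest sedentary value exceeded the whole range of the trained rats. The rise was 1.67 log2 units (SE 0.22, adjusted p = 0.0465 by limma, n = 4 each), and the array carries 1 probe set for the gene. It stood close to the threshold: the adjusted p was 0.0788 to 0.309 when trained rat 1, 2, 3 or 4 or sedentary rat 1 or 3 was left out, and 0.0319 and 0.0259 without sedentary rat 4 or 2. It was 0.0537 after quantile normalization, 0.0762 after median centring, 0.0837 when only the LCR arrays were fitted, and 0.0812 and 0.196 when the GAPDH index or the beta-actin index was added to the model, while the difference stayed between 1.44 and 1.83 over single rats left out.

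**Figure D1:**
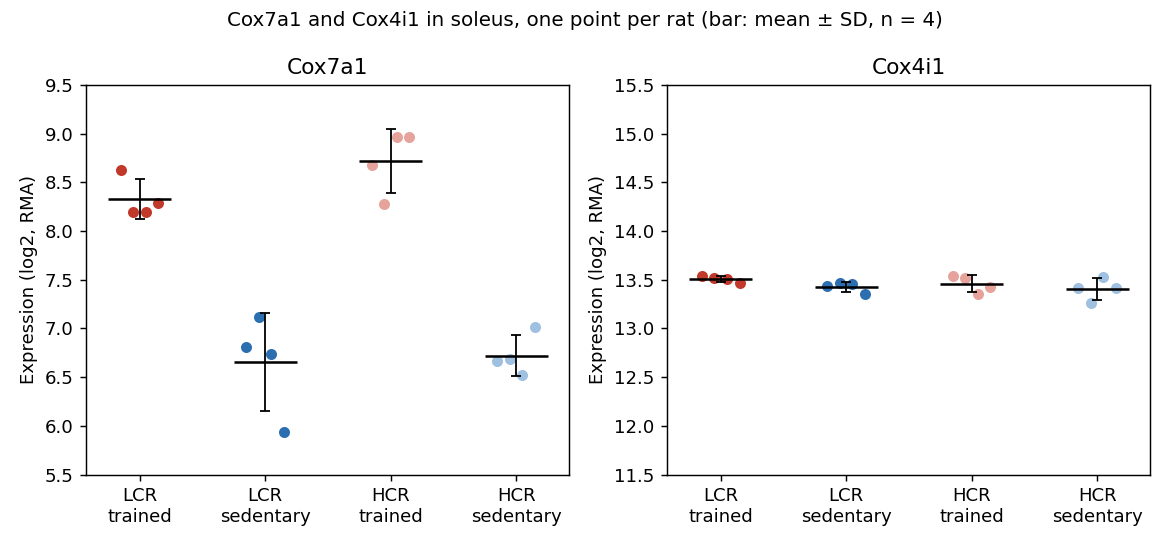
Expression of Cox7a1 (left) and Cox4i1 (right) in each rat, on the log2 scale, in LCR trained, LCR sedentary, HCR trained and HCR sedentary soleus, with the mean and SD of 4 rats as bars. Cox7a1 read 8.19 to 8.63 in LCR trained rats and 5.94 to 7.12 in LCR sedentary rats, whereas Cox4i1, on an axis of the same span, differed by 0.08.

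The 250 bases before the start of Cox7a1 are shown because this is the gene on which the tested comparison rests. They lie at chr1:94568966-94569215 on the plus strand of build GRCr8 and come from RefSeq. Capitals mark the 1 match to the E-box CANNTG, the core bound by myogenic helix-loop-helix factors, searched on both strands, which begins 125 bases before the gene start.
Cox7a1: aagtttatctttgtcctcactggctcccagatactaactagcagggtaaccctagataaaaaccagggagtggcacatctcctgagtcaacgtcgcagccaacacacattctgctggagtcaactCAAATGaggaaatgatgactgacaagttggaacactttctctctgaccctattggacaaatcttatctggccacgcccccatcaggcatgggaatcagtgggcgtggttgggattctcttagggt
An E-box of these letters was present in 65.5% of the 33469 RefSeq windows of the same length, and the median window held 1, so the match is a description and not a site. The palindromic NRF-1 site and the letters TCAAGGTCA (estrogen-related receptors) and TGACGTCA (the cAMP response element) were not in this window on either strand, and were in 0.762%, 0.388% and 1.59% of all windows.

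The other subunits of the oxidase differed little. Of 28 measured genes of respiratory complexes III and IV and cytochrome c, 17 had a positive difference and Cox7a1 was the 1 gene that passed. The median was 0.04, and it was -0.0010 without sedentary rat 4 and 0.07 without sedentary rat 2. Cox4i1, the common form of subunit IV, read 13.54, 13.52, 13.51 and 13.46 in trained rats and 13.43, 13.47, 13.46 and 13.35 in sedentary rats, a difference of 0.08 (SE 0.06) with overlapping groups. Its hypoxia-linked and lung-enriched paralogue Cox4i2 differed by 0.23 (SE 0.10), with 6.70 to 6.90 in trained and 6.46 to 6.67 in sedentary rats. The muscle form of subunit VIa, Cox6a2, differed by -0.12, and Cox7a2l, a relative of Cox7a1 that helps to form respiratory supercomplexes, by -0.11 (SE 0.06). Cox11, a copper chaperone for oxidase assembly, differed by -0.20 (SE 0.06), reading 5.84, 5.82, 5.82 and 5.97 in trained rats and 6.13, 6.05, 6.06 and 6.02 in sedentary rats. Cox11 sits just above the dim range, its groups did not overlap, and another of its 3 probe sets had the opposite sign.

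Beyond Cox7a1 the comparison gives ordered values but no further call. Unadjusted p was under 0.05 for 3031 probe sets (9.76%), 1100 with higher signal in trained rats (3.54%) and 1931 with lower signal (6.22%), and the 2 groups did not overlap in 899 higher (2.9%) and 1741 lower probe sets (5.61%). Differences beyond 1 log2 unit were seen in 99 probe sets, 83 of them higher in trained rats and 16 lower. The median over all probe sets was -0.02. The genes named next are those of smallest p, so their small p and separated groups are how they were found, and their adjusted p by limma ran from 0.127 to 0.248.

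Of the genes of smallest p with higher signal, those of cell membranes and vessels are given first. Cd9, a tetraspanin of cell contacts and vesicles, read 10.32, 10.57, 10.35 and 10.98 in trained rats, against 9.27, 9.31, 10.00 and 9.42 in sedentary rats, a difference of 1.05 (SE 0.18), with sedentary rat 3 nearest to the trained rats. Eng, endoglin, a coreceptor for TGF-beta ligands on endothelium, read 8.65, 8.68, 8.49 and 8.72 in trained and 8.18, 8.19, 8.18 and 8.29 in sedentary rats, a difference of 0.43 (SE 0.09). Icam2, an endothelial adhesion molecule, read 8.53, 8.77, 8.54 and 8.73 in trained and 8.14, 8.34, 7.99 and 7.93 in sedentary rats, a difference of 0.54 (SE 0.12; 0.03 at its other probe set). In all 3 genes each trained rat lay above each sedentary rat. Ace, angiotensin-converting enzyme, which sits on endothelium, differed by 0.48 (SE 0.11), with 8.07 to 8.30 in trained and 7.61 to 7.71 in sedentary rats. The other Ace probe set differed by 0.11. Gja5, connexin 40 of arterial endothelium, differed by 0.44, and trained rat 3 and sedentary rat 1 met at 6.88. Its other probe set differed by -0.05. Jam2, a junctional adhesion molecule, differed by 0.42, with trained rat 4 and sedentary rat 3 meeting at 6.03. The other Jam2 probe sets differed by 0.32, 0.31, 0.09 and 0.04.

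The remaining genes of smallest p with higher signal had other roles. Dcn, decorin, a collagen-binding proteoglycan, read 12.60, 12.72, 12.35 and 12.49 in trained and 11.68, 11.84, 11.96 and 12.18 in sedentary rats, a difference of 0.63 (SE 0.13). Anxa3, a calcium-dependent membrane-binding protein, read 8.73 to 8.84 in trained and 8.24 to 8.49 in sedentary rats, a difference of 0.42, while its 3 other probe sets differed by 0.10, -0.09 and 0.05. Smad7, an inhibitor of TGF-beta signalling, differed by 0.44 (SE 0.09), with 6.51 to 6.63 in trained and 6.05 to 6.28 in sedentary rats, and its other probe sets by 0.06 and -0.07. St3gal2, a sialyltransferase, differed by 0.94 (SE 0.21), Fgl2, a fibrinogen-like protein, by 0.47, Tspan3, another tetraspanin, by 0.40, Tmed7, a cargo receptor of the secretory pathway, by 0.40 (0.05 and -0.09 at its other probe sets), and Stt3b, a catalytic subunit of N-glycosylation, by 0.31.

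The genes of smallest p with lower signal differed by -0.27 to -0.69. Mad2l2, a subunit of DNA polymerase zeta and of a DNA repair complex, read 7.90, 8.08, 7.85 and 7.97 in trained rats, against 8.50, 8.50, 8.38 and 8.33 in sedentary rats, a difference of -0.48 (SE 0.07, adjusted p = 0.127 by limma). Rcor2, a corepressor that works with histone demethylase, read 7.19, 6.98, 7.07 and 7.33 in trained and 7.85, 7.94, 7.76 and 7.78 in sedentary rats, a difference of -0.69 (SE 0.13). Mapt, the microtubule-binding protein tau, read 8.69, 8.74, 8.91 and 8.66 in trained and 9.46, 9.15, 9.05 and 9.12 in sedentary rats, a difference of -0.45. All trained rats lay below all sedentary rats in these 3 genes. Among chromatin and transcription genes, Asxl1, a Polycomb-associated regulator, differed by -0.44, Med16, a Mediator subunit, by -0.41 and Foxn3, a forkhead repressor, by -0.42. Sumo3, a ubiquitin-like modifier, differed by -0.49, Gemin5, which delivers small nuclear RNAs to the SMN complex, by -0.27, and Shmt1, the cytosolic enzyme of serine and folate metabolism, by -0.41. Styxl1, a catalytically dead phosphatase relative, differed by -0.36, Erc1, a scaffold of secretory sites, by -0.33, Amotl1, a junction protein of the Hippo pathway, by -0.37, Arfgap2, of Golgi traffic, by -0.38, Btbd9 by -0.42 and C20h22orf15 by -0.27. Amotl1 and Gemin5 each had another probe set of the opposite sign. The other Foxn3 probe sets differed by -0.31, -0.08 and 0.03. Other probe sets differed by -0.10, -0.07 and -0.01 for Asxl1, -0.04 for Med16, -0.12 for Erc1 and -0.27 for Btbd9. Those of Mapt differed by -0.42 and -0.27.

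**Figure D2:**
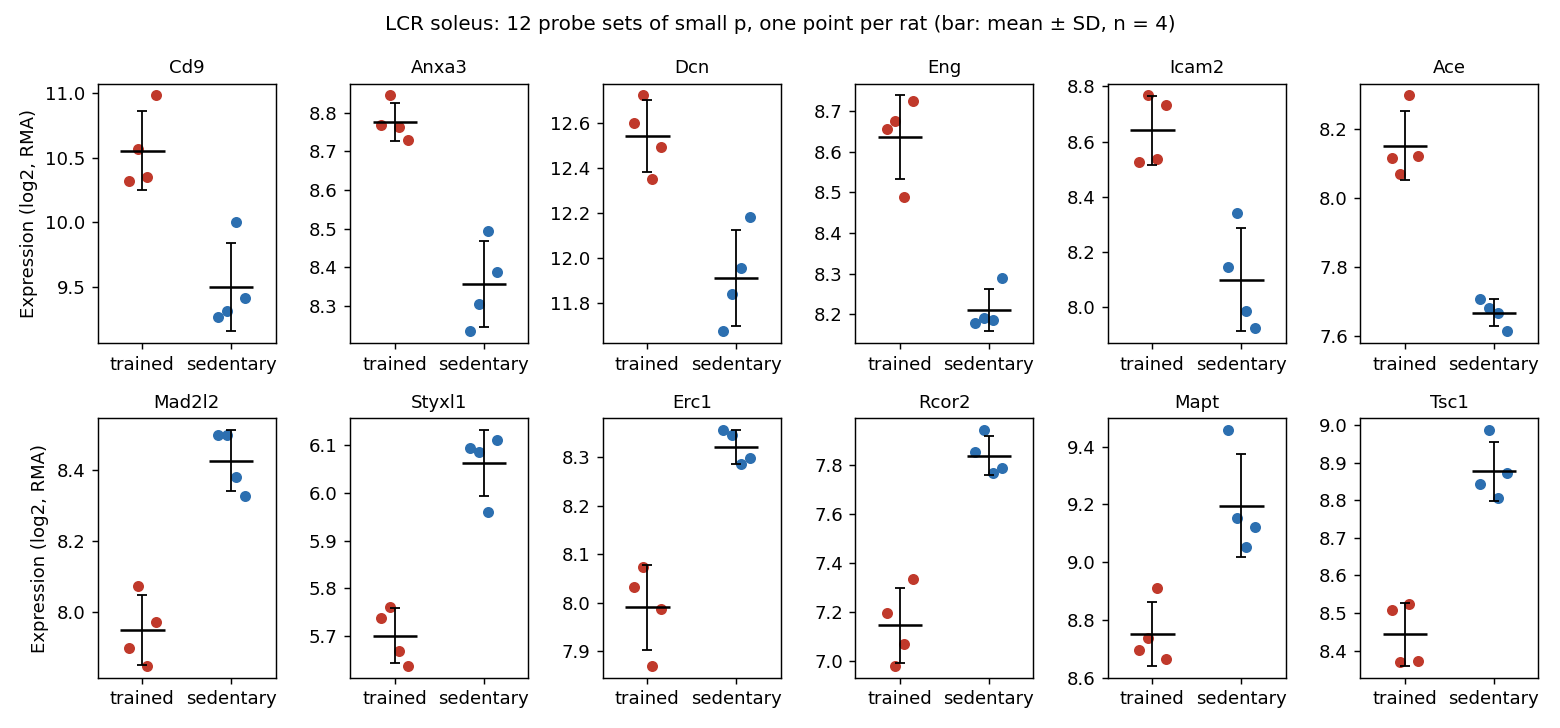
Expression on the log2 scale of 12 genes of small unadjusted p in each of 4 LCR trained (red, left) and 4 LCR sedentary rats (blue, right), with mean and SD as bars and a separate axis for each gene. The upper genes lay higher in trained rats, by 0.42 for Anxa3 to 1.05 for Cd9, and the lower ones lay lower in trained rats, by -0.33 for Erc1 to -0.69 for Rcor2, and 0 of the 12 passed the threshold after adjustment.

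In 46 lists of muscle, vascular, stromal, immune and metabolic genes, each gene was taken at its brightest probe set. Over all 14217 genes measured that way 41.3% had a positive difference and the median was -0.03. Unadjusted p was under 0.05 for 3.7% of them on the higher side and 7% on the lower side, and groups did not overlap for 3.33% higher and 6.82% lower. The counts of each list below are to be read beside these shares. The medians of 23 lists were positive and those of 23 were negative. Besides Cox7a1, 0 list members passed the threshold, while 1 of 31042 probe sets did so at all. In bulk muscle, fewer cells of a type and less RNA per cell cannot be told apart.

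**Figure D3:**
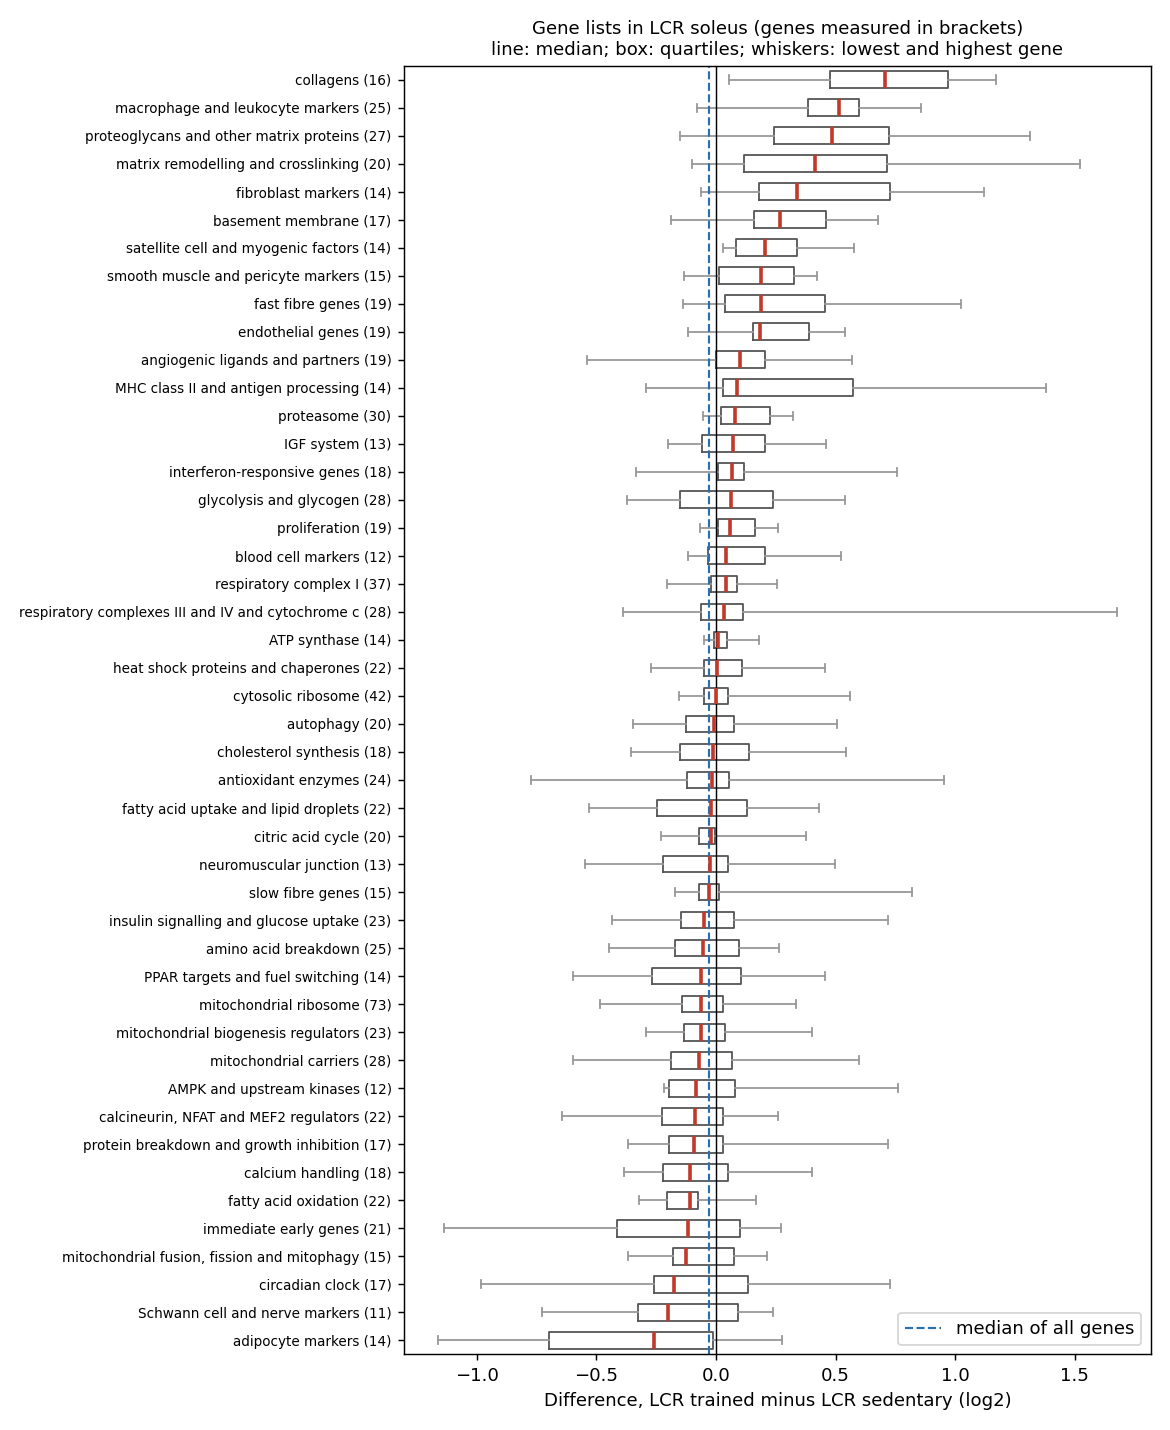
Difference in log2 expression, LCR trained minus LCR sedentary, for the genes of each list, with the number of genes in brackets, the median in red, the quartiles as a box and the lowest and highest gene as whiskers; the dashed line is the median of all genes, -0.03. Collagens stand at the top with a median of 0.71 and adipocyte markers at the bottom with -0.26.

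Endothelial genes were, on average, higher on each trained array than on any sedentary array. Of 19 measured genes 18 had a positive difference, at a median of 0.18. Their unadjusted p was under 0.05 in 8, all higher, and 7 had groups that did not overlap. Over all genes those shares on the higher side were 3.7% and 3.33%. The list mean, relative to the average of all 16 arrays, was 0.15, 0.16, 0.14 and 0.20 in trained rats 1 to 4 and -0.06, -0.01, -0.10 and -0.19 in sedentary rats 1 to 4, so that all trained rats lay above all sedentary rats. Pecam1, the platelet and endothelial adhesion molecule CD31, read 8.63, 8.58, 8.51 and 8.44 in trained and 8.34, 8.11, 7.89 and 8.00 in sedentary rats, a difference of 0.45 (SE 0.14). Sox18, a transcription factor of vessel formation, read 8.26 to 8.51 in trained and 7.73 to 8.15 in sedentary rats, a difference of 0.49, and Cav1, caveolin 1, differed by 0.34, with 11.12 to 11.38 and 10.79 to 10.99. Kdr, the main VEGF receptor, overlapped between the groups and differed by 0.15 (SE 0.16). The median over single rats left out ran from 0.19 to 0.25.

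Ligands and partners of vessel growth were mixed. Of 19 measured, 14 had a positive difference at a median of 0.10 (0.06 without trained rat 1), with unadjusted p under 0.05 in 2 higher and 1 lower gene. Nrp1, neuropilin 1, a coreceptor for VEGF and semaphorins, read 9.55, 9.32, 9.27 and 9.08 in trained and 8.51, 8.90, 8.87 and 8.65 in sedentary rats, a difference of 0.57 (SE 0.15) with groups apart. Angpt2, angiopoietin 2, which destabilises vessels, read 6.43, 6.08, 6.04 and 6.26 in trained and 6.79, 6.70, 6.58 and 6.65 in sedentary rats, a difference of -0.48 (SE 0.20). Vegfa, the chief angiogenic ligand of working muscle, overlapped, at 9.86 to 10.51 in trained and 9.99 to 10.40 in sedentary rats, a difference of 0.10 (SE 0.14). The other Vegfa probe set also overlapped and differed by 0.42 (SE 0.28). Smooth muscle and pericyte markers had a positive difference in 11 of 15 genes and a median of 0.19, with Rgs5, a pericyte regulator of G protein signalling, at 0.35 and Kcnj8, a vascular potassium channel, at 0.33.

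Collagens had the largest median of the 46 lists, with trained rats far apart from each other. All 16 measured collagens had a positive difference, at a median of 0.71, but only 2 had an unadjusted p under 0.05 and 2 had groups that did not overlap. Those p values and the SEs rest on the spread of all 16 arrays, among them HCR sedentary 2 with a collagen list mean of 1.68. Their list mean was 0.38, 1.07, 0.25 and -0.28 in trained rats 1 to 4 and -0.45, -0.06, -0.36 and -0.52 in sedentary rats 1 to 4. Trained rat 2 was the highest of the 4 trained rats in 14 of the 16 collagens, trained rat 4 was the lowest in 14, and trained rat 4 lay below sedentary rat 2. Col3a1, a fibrillar collagen of the muscle interstitium, read 12.31, 13.24, 12.07 and 11.39 in trained and 10.88, 11.91, 11.40 and 10.89 in sedentary rats, a difference of 0.98 (SE 0.44) that was 0.65 without trained rat 2. Col1a1, the main tendon and interstitial collagen chain, read 11.77, 12.42, 11.81 and 10.21 in trained and 10.04, 11.05, 10.58 and 10.04 in sedentary rats, a difference of 1.12 (SE 0.54). Without trained rat 2 the collagen median was 0.48, and without trained rat 4 it was 0.95.

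In the other matrix lists, too, trained rat 2 had the highest mean of the trained rats and trained rat 4 the lowest. Proteoglycans and further matrix proteins had a positive difference in 25 of 27 genes and a median of 0.49, with unadjusted p under 0.05 in 8, all higher, among them Dcn and Mgp, matrix Gla protein, an inhibitor of calcification, which differed by 0.49 (SE 0.14) and read 12.31 to 12.72 in trained and 11.82 to 12.28 in sedentary rats. Enzymes of matrix remodelling and crosslinking had a positive difference in 17 of 20 at a median of 0.41. It was 0.24 without trained rat 2, and also 0.24 with the mean over all probe sets of each gene. The crosslinking enzyme Lox reached 9.39 in trained rat 2, against 7.12, 7.52 and 6.86 in the other trained rats and 5.66 to 6.92 in sedentary rats, and 1 gene of this list, Timp2, an inhibitor of matrix metalloproteinases, had an unadjusted p under 0.05. Basement membrane genes had a positive difference in 14 of 17 at a median of 0.27, and 5 had groups apart. Col4a1, the common network collagen of vessel and fibre sheaths, read 10.07, 10.55, 10.10 and 9.75 in trained and 9.46, 9.46, 9.59 and 9.29 in sedentary rats, a difference of 0.67 (SE 0.29). Fibroblast markers had a positive difference in 13 of 14 at a median of 0.34, with Dpt, dermatopontin, at 0.55 and Vim, the filament protein vimentin, at 0.65, both with groups apart. Tendon markers did not share that direction: Tnmd, tenomodulin, differed by -0.03, Scx, scleraxis, by -0.43 and Fmod, fibromodulin, by -0.15, beside 0.95 for Thbs4, thrombospondin 4.

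Macrophage and leukocyte markers were positive in difference for 23 of 25 genes (median 0.51), with groups apart in 7, all higher, and unadjusted p under 0.05 in 4. Over all genes those shares on the higher side were 3.33% and 3.7%. C1qa, a complement subunit made by tissue macrophages, read 9.65, 10.10, 9.79 and 9.60 in trained and 8.76, 9.39, 9.07 and 8.96 in sedentary rats, a difference of 0.74 (SE 0.35). Lyz2, macrophage lysozyme, read 11.43, 11.93, 12.15 and 11.49 in trained and 10.67, 11.42, 10.45 and 11.01 in sedentary rats, a difference of 0.86 (SE 0.36), with trained rat 1 and sedentary rat 2 almost touching. Cd68 and Ptprc, of macrophages and of all leukocytes, overlapped and differed by 0.60 and 0.69. The mean log2 level of 4 defining markers ran from 7.70 to 8.41 on trained arrays and from 7.13 to 7.81 on sedentary arrays. Among them Ptprc read 5.32 in sedentary rats 1 and 4, below the 40th percentile of probe set means, 5.61. The part of these cells in the matrix differences was not tested.

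Class II antigen-presentation genes were less even. Of 14 genes of class II and antigen processing 12 had a positive difference at a median of 0.09, which was 0.25 without sedentary rat 2. RT1-Ba, a rat class II alpha chain, read 9.82, 11.14, 10.05 and 10.49 in trained and 9.57, 7.52, 9.56 and 7.83 in sedentary rats at its probe set of smallest p, a difference of 1.76 (SE 0.41), in which sedentary rats 2 and 4 were low and rats 1 and 3 were near the trained rats. Its other probe sets differed by 1.38, 0.41 and -0.82. Its partner RT1-Bb overlapped, at 8.18 to 9.42 in trained and 7.48 to 9.34 in sedentary rats, a difference of 0.72 (SE 0.46). Class II genes are highly polymorphic, and how the probes match each rat's allele was not tested.

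**Figure D4:**
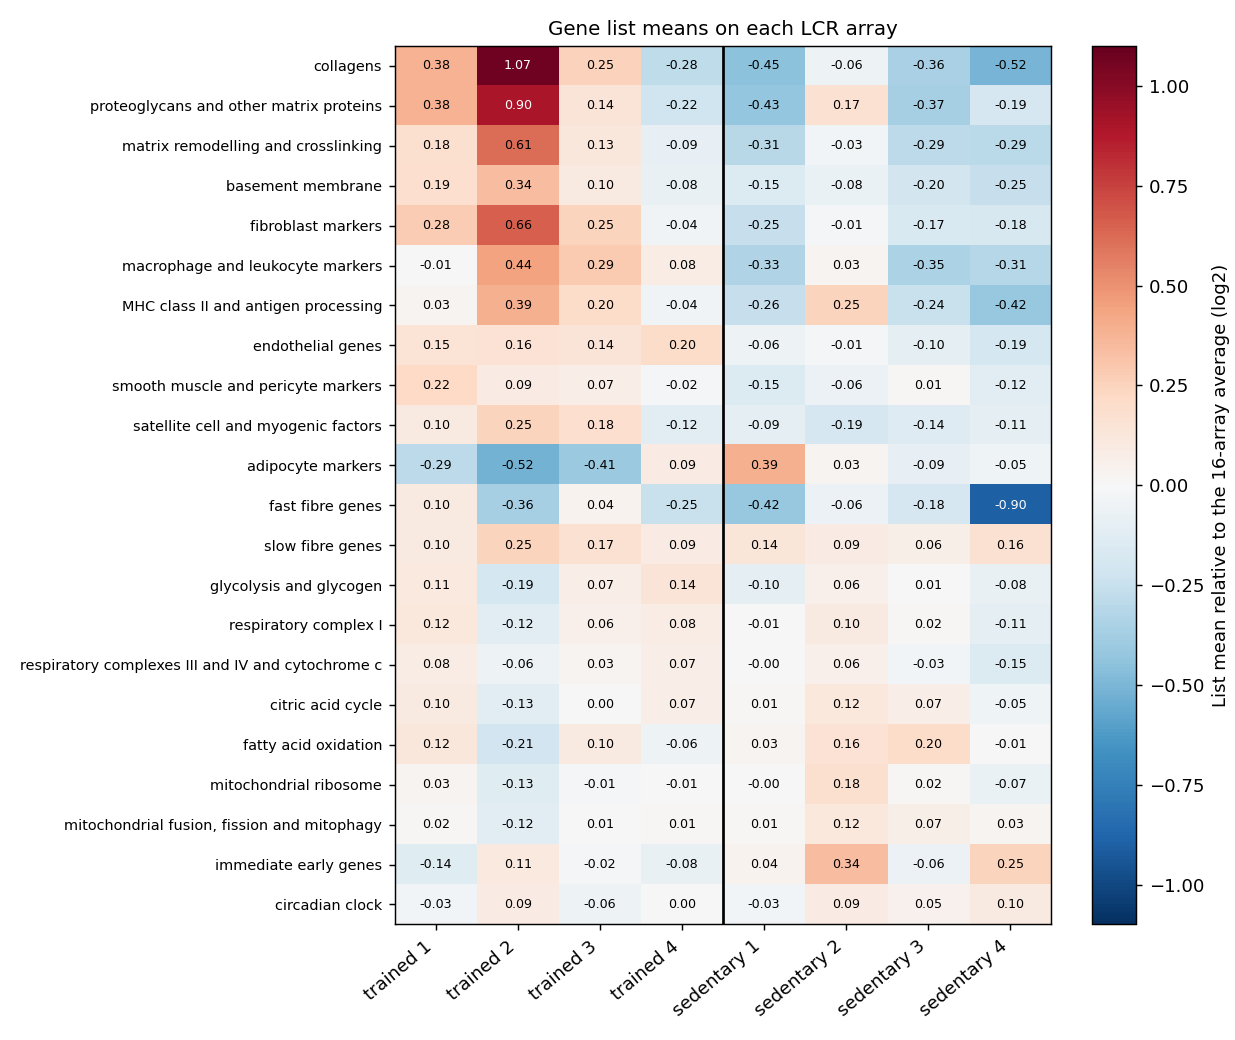
Mean of each gene list on each LCR array in log2 units relative to the average of all 16 arrays, with trained rats 1 to 4 left of the line and sedentary rats 1 to 4 right of it. The collagen row runs from -0.28 to 1.07 in trained rats and from -0.52 to -0.06 in sedentary rats, and the endothelial row from 0.14 to 0.20 and from -0.19 to -0.01.

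Slow fibre genes differed little and fast fibre genes were mostly a little higher in trained rats. Of 15 slow fibre genes 6 had a positive difference, at a median of -0.03, with 0 at an unadjusted p under 0.05. Those p values rest on the spread of all 16 arrays, among them HCR trained 3 with a list mean of -2.43. Groups did not overlap in 1 higher and 3 lower slow fibre genes, beside 3.33% higher and 6.82% lower over all genes. Myh7, the slow beta myosin, read 14.50, 14.52, 14.48 and 14.40 in trained and 14.42, 14.46, 14.48 and 14.52 in sedentary rats, a difference of 0.00 (SE 0.37), where both groups are near the top of the array's range. That SE draws on all 16 arrays, among them HCR trained 3 at 12.05. Within LCR the SD of Myh7 was 0.05 in trained and 0.04 in sedentary rats. The other Myh7 probe set overlapped and differed by 1.03 (SE 1.17). Of 19 fast fibre genes 16 had a positive difference at a median of 0.19, with unadjusted p under 0.05 in 3, all higher. Myh2, the type IIA myosin of oxidative fast fibres, read 13.87, 13.76, 13.78 and 13.75 in trained and 13.39, 13.67, 13.77 and 12.97 in sedentary rats, a difference of 0.34 (SE 0.15). Myl11, the fast regulatory light chain, read 13.80, 13.74, 13.82 and 13.66 in trained and 13.17, 13.50, 13.54 and 12.34 in sedentary rats, a difference of 0.62 (SE 0.27). Sedentary rat 4 was lowest in both genes, and without it Myh2 differed by 0.18 and Myl11 by 0.35. The fast fibre mean was 0.10, -0.36, 0.04 and -0.25 in trained rats 1 to 4 and -0.42, -0.06, -0.18 and -0.90 in sedentary rats 1 to 4, so the groups overlapped. Without sedentary rat 4 the list median was 0.15, and without sedentary rat 2 it was 0.28.

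The largest differences of the comparison, in Ankrd1 and Mybph, varied widely among trained rats. Ankrd1, a titin-bound ankyrin repeat protein induced by stretch and injury, read 8.46, 12.43, 10.85 and 6.64 in trained rats 1 to 4, against 6.12, 6.04, 6.65 and 7.17 in sedentary rats 1 to 4. Trained rats 1, 2 and 3 lay above all sedentary rats, and trained rat 4 lay below sedentary rats 3 and 4. The difference was 3.10 (SE 1.24, adjusted p = 0.453 by limma), it was 2.15 without trained rat 2 and 1.74 with the beta-actin index in the model, and the second probe set gave 3.09. Mybph, a myosin-binding protein of the thick filament, read 8.80, 11.87, 10.27 and 9.18 in trained and 7.97, 7.70, 7.03 and 8.63 in sedentary rats, a difference of 2.20 (SE 0.74, adjusted p = 0.370) with groups apart. Csrp3, muscle LIM protein, a Z-disc protein linked to stretch sensing, read 12.73, 13.67, 13.34 and 12.64 in trained and 12.27, 12.17, 12.23 and 12.44 in sedentary rats, a difference of 0.82 (SE 0.47). Trained rat 2, which was highest in these 3 genes, was also highest in the matrix lists.

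**Figure D5:**
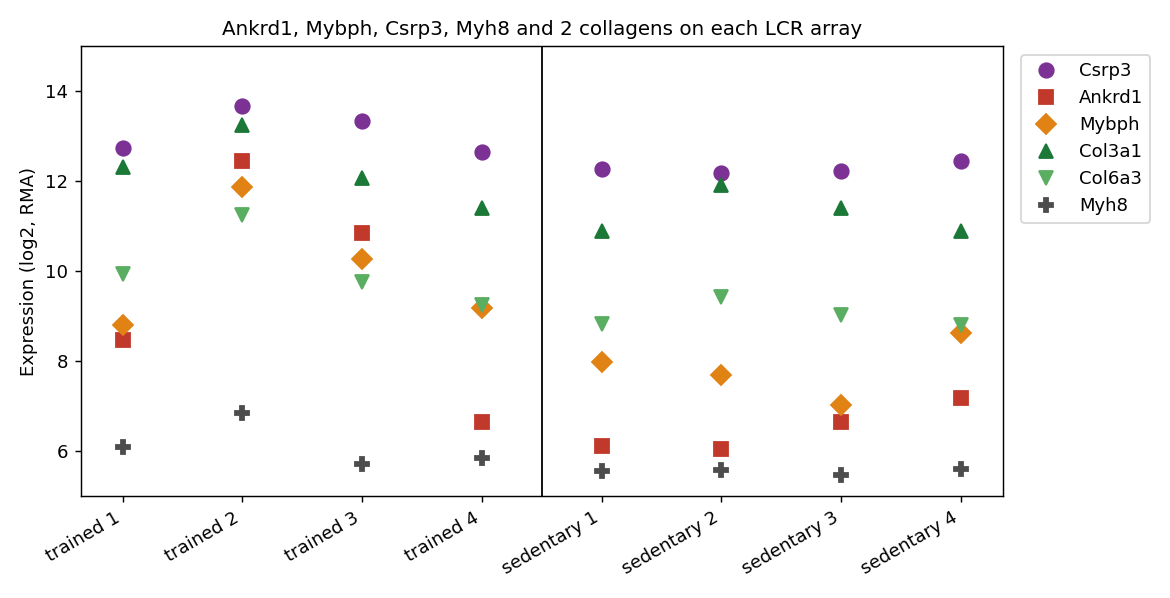
Expression on the log2 scale of Csrp3, Ankrd1, Mybph, Myh8, Col3a1 and Col6a3 on each LCR array, with trained rats 1 to 4 left of the line and sedentary rats 1 to 4 right of it. Ankrd1 spans 6.64 to 12.43 among trained rats, with trained rat 2 highest for all 6 genes, and 6.04 to 7.17 among sedentary rats.

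Satellite cell and myogenic genes had a positive difference in all 14 measured, at a median of 0.21, with 1 at an unadjusted p under 0.05. That gene was Myh8, the perinatal myosin, which read 6.10, 6.85, 5.72 and 5.85 in trained and 5.56, 5.57, 5.47 and 5.61 in sedentary rats, a difference of 0.58 (SE 0.22) at low signal, or 0.34 without trained rat 2. Hey1, a Notch target, differed by 0.35, while Cdh15, the satellite cell cadherin among the cell type markers, overlapped and differed by 0.09. Proliferation genes had a positive difference in 15 of 19, at a median of 0.06, with 0 at an unadjusted p under 0.05, and Mki67 differed by 0.26. HCR sedentary 2, with a proliferation list mean of 0.60, is among the arrays behind those p values. Igf1, a growth factor for muscle, read 9.38, 9.46, 9.06 and 9.12 in trained and 8.68, 8.90, 8.92 and 8.68 in sedentary rats, a difference of 0.46 (SE 0.21), with its 3 probe sets between 0.35 and 0.61. Mstn, myostatin, was dim in both groups, at 4.36 to 4.49 in trained and 4.34 to 4.46 in sedentary rats.

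Genes of fatty acid oxidation and the citric acid cycle were mostly a little lower in trained rats, and those of complex I and ATP synthase mostly a little higher. Of 22 fatty acid oxidation genes 5 had a positive difference, at a median of -0.11, with 0 at an unadjusted p under 0.05 and groups apart in 3, all lower. Those p values draw on the HCR arrays too, among them HCR sedentary 2 with a list mean of -0.96 and HCR trained 3 with -0.40. Cpt1b, the muscle enzyme that commits fatty acids to mitochondrial import, read 12.05, 11.87, 12.15 and 12.07 in trained and 12.31, 12.31, 12.32 and 12.36 in sedentary rats, a difference of -0.29 (SE 0.20), in which all trained rats were lower. That SE includes HCR sedentary 2 at 11.42 and HCR trained 3 at 11.49. Within LCR the SD of Cpt1b was 0.12 in trained and 0.02 in sedentary rats. Without trained rat 2 that list median was -0.05, and without trained rat 1 it was -0.17. Of 20 citric acid cycle genes 3 had a positive difference, at a median of -0.02. Over all genes 41.3% had a positive difference and the median was -0.03, so the citric acid cycle median was not below that of all genes. Cs, citrate synthase, a common index of mitochondrial content, read 12.27, 12.13, 12.24 and 12.27 in trained and 12.31, 12.30, 12.13 and 12.12 in sedentary rats, a difference of 0.01 (SE 0.11). Complex I genes had a positive difference in 25 of 37 at a median of 0.04 and ATP synthase genes in 9 of 14 at 0.01, with 0 at an unadjusted p under 0.05 in either. The complex I and ATP synthase list means of HCR sedentary 2, which enters those p values, were -0.48 and -0.35. Mitochondrial ribosome genes had a positive difference in 20 of 73, at a median of -0.06. These small medians moved with single rats: citric acid cycle genes were at 0.03 without trained rat 2 and -0.06 without trained rat 1, complex I genes at 0.08 without trained rat 2 and 0.01 without sedentary rat 4, and mitochondrial ribosome genes at -0.02 without sedentary rat 2.

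Regulators of mitochondrial number and shape were split. Ppargc1a, PGC-1alpha, read 8.33, 7.97, 8.28 and 8.29 in trained and 7.55, 7.64, 7.99 and 8.08 in sedentary rats, a difference of 0.40 (SE 0.20), in which sedentary rats 3 and 4 reached trained rat 2. Gabpa, a subunit of the factor NRF-2, differed by 0.38 (SE 0.13) with groups apart, and Polrmt, the mitochondrial RNA polymerase, by -0.27 (SE 0.12) with groups apart. Tfam, which packages mitochondrial DNA, differed by 0.01 (SE 0.06). The 23 biogenesis regulators had a median of -0.06, with 7 positive, and of -0.02 without sedentary rat 2. Of 15 genes of fusion, fission and mitophagy 5 had a positive difference at a median of -0.13. Groups were apart in 4 of them, all lower, beside 6.82% lower over all genes. Mfn2, mitofusin 2 of the outer membrane, read 11.13, 10.99, 11.04 and 11.11 in trained and 11.40, 11.43, 11.41 and 11.45 in sedentary rats, a difference of -0.36 (SE 0.17), and Mief2, a fission adaptor, differed by -0.37 (SE 0.12). Without trained rat 2 that median was -0.07, and with the mean over all probe sets of each gene it was -0.0052.

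Lists of fibre-type and calcium signalling genes had negative medians, beside a median of -0.03 and 41.3% positive over all genes. Among 22 calcineurin, NFAT and MEF2 regulators 8 had a positive difference, at a median of -0.09, with groups apart in 5 and unadjusted p under 0.05 in 3, all lower. Over all genes those shares on the lower side were 6.82% and 7%. Camk2b, a calcium-dependent kinase, read 11.18, 11.27, 11.11 and 11.12 in trained and 11.72, 11.54, 11.47 and 11.65 in sedentary rats, a difference of -0.42 (SE 0.12), although another probe set had the opposite sign. Hdac5, a repressor of MEF2, differed by -0.33, and Mef2d by -0.31, with 8.95 to 8.99 in trained and 9.16 to 9.42 in sedentary rats. Of 18 calcium handling genes 7 had a positive difference, at a median of -0.11, with groups apart in 1 higher and 5 lower genes. With the mean over all probe sets of each gene that median was -0.04. Ryr1, the calcium release channel, read 12.26, 12.37, 12.48 and 12.28 in trained and 12.65, 12.57, 12.60 and 12.73 in sedentary rats, a difference of -0.29 (SE 0.11).

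Insulin and growth signalling gave 1 higher and 3 lower genes at an unadjusted p under 0.05 among 23, at a median of -0.05. Over all genes the median was -0.03, and 3.7% were higher and 7% lower at that p. Tsc1 and Tsc2, which together restrain the growth kinase mTORC1, differed by -0.43 (SE 0.10) and -0.24 (SE 0.07). Tsc1 read 8.51, 8.37, 8.52 and 8.37 in trained and 8.84, 8.99, 8.80 and 8.87 in sedentary rats, and its other probe set differed by -0.06. Slc2a4, the insulin-responsive glucose transporter GLUT4, overlapped and differed by -0.01 (SE 0.21), and Hk2, hexokinase 2, by 0.33 (SE 0.32). The 12 AMPK subunits and upstream kinases had a median of -0.08, and the 14 PPAR targets one of -0.06 (-0.02 without sedentary rat 3). In the PPAR list Pdk2, a kinase that shuts off pyruvate dehydrogenase, differed by -0.38 (SE 0.19), and Pdk4, its fasting-induced relative, by 0.46 (SE 0.59), reading 9.68 to 11.24 in trained and 8.87 to 11.89 in sedentary rats. Glycolysis and glycogen genes had a positive difference in 16 of 28, at a median of 0.06, which ran from 0.02 without sedentary rat 1 to 0.12 without trained rat 2. Without sedentary rat 2 the insulin list was at -0.02 and the AMPK list at -0.03. With the mean over all probe sets of each gene they were at 0.03 and -0.03.

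Protein turnover genes went both ways. Proteasome subunits had a positive difference in 24 of 30 at a median of 0.08, with unadjusted p under 0.05 in 4, all higher. Psmc6, an ATPase of the proteasome cap, differed by 0.32 (SE 0.10), with 9.18 to 9.52 in trained and 8.81 to 9.12 in sedentary rats, and without sedentary rat 1 the list median was 0.05. Genes of protein breakdown and growth inhibition had a median of -0.09 over 17 (-0.06 without sedentary rat 1), with 2 higher and 2 lower at an unadjusted p under 0.05. Among 20 autophagy genes, at a median of -0.01, Ctsl, a lysosomal protease, differed by 0.51 (SE 0.14), and Ulk2, a kinase that starts autophagy, by -0.35 (SE 0.09), both with groups apart. Gpx3, the secreted glutathione peroxidase, read 11.39, 11.36, 11.71 and 11.51 in trained and 11.07, 11.08, 10.38 and 11.04 in sedentary rats, a difference of 0.60 (SE 0.15), and antioxidant enzymes as a list had a median of -0.01. Heat shock genes and cytosolic ribosome genes had medians of 0.01 and 0.00, and trained rat 2 was the highest of the trained rats in 40 of the 42 ribosome genes.

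Lists of fat cell and nerve markers had negative medians. Adipocyte markers had a positive difference in 3 of 14 at a median of -0.26, with 0 at an unadjusted p under 0.05, and without sedentary rat 1 the median was -0.11. Those p values draw on the HCR arrays too, whose adipocyte list means ran from -0.98 to 1.36. Adipoq, adiponectin, read 6.88, 7.02, 6.90 and 7.84 in trained and 9.02, 7.91, 8.01 and 8.00 in sedentary rats, a difference of -1.07 (SE 0.67) with groups apart, although trained rat 4 was close to the sedentary rats. Plin1, of the fat droplet coat, differed by -0.92 (SE 0.66). Schwann cell and nerve markers had a positive difference in 4 of 11 at a median of -0.20, with unadjusted p under 0.05 in 3, all lower. That median was -0.10 without trained rat 3, and -0.03 with the mean over all probe sets of each gene. Prx, periaxin of myelinating Schwann cells, read 7.23, 6.90, 6.93 and 7.25 in trained and 7.47, 7.27, 7.36 and 7.37 in sedentary rats, a difference of -0.29 (SE 0.10).

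Genes that respond within hours and genes of the clock were also measured 48 hours after exercise. Of 21 immediate early genes 9 had a positive difference, at a median of -0.12, with unadjusted p under 0.05 in 4, all lower, and without sedentary rat 2 the median was -0.02. Nr4a2, an orphan receptor induced by exercise and adrenaline, read 6.05, 6.20, 6.34 and 6.78 in trained and 6.49, 8.08, 6.91 and 8.44 in sedentary rats, a difference of -1.13 (SE 0.37), in which sedentary rats 2 and 4 were high and sedentary rat 1 lay within the trained range. Nr4a1, its relative, differed by -0.92 (SE 0.42), with 8.94 to 9.75 in trained and 9.83 to 10.77 in sedentary rats. Clock genes had a positive difference in 7 of 17 at a median of -0.18, and without sedentary rat 4 it was -0.07. With the mean over all probe sets of each gene it was -0.08. Over all genes 41.3% had a positive difference, at a median of -0.03. Hlf, a transcription factor that carries clock output, read 7.57, 6.92, 6.96 and 7.60 in trained and 8.30, 8.36, 8.17 and 8.15 in sedentary rats, a difference of -0.98 (SE 0.23, adjusted p = 0.288 by limma) with groups apart. The other Hlf probe sets differed by -0.56, -0.33 and -0.07. The hour of killing is not given in the sources used here.

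A few large differences rested on sedentary rats 1 and 2, which had the highest beta-actin index of the 8 LCR arrays. Zeb2, a transcriptional repressor, read 6.65, 7.03, 5.91 and 5.80 in trained rats, against 4.06, 4.36, 5.98 and 5.66 in sedentary rats, a difference of 1.33 (SE 0.39) that was 0.53 without sedentary rats 1 and 2 and 1.07 with the beta-actin index in the model. The other 4 probe sets of Zeb2 differed by 0.60, 0.23, 0.15 and 0.11. At its probe set of smallest p the sedentary mean was 5.01, below the 40th percentile of probe set means, 5.61. It was therefore kept only through its trained mean, 6.35. Sh3bgrl1 read 7.16, 7.49, 6.31 and 6.50 in trained and 4.48, 5.10, 6.21 and 5.72 in sedentary rats, a difference of 1.48 (SE 0.43). It was 0.90 both without sedentary rats 1 and 2 and with the beta-actin index in the model. The sedentary mean of Sh3bgrl1, 5.38, was below that percentile too. Chosen after their values were seen, Prkaa2, the catalytic AMPK subunit alpha 2 of muscle, read 10.85, 10.69, 10.61 and 11.01 in trained and 8.76, 9.26, 11.21 and 10.89 in sedentary rats, and Foxo1, a transcription factor of atrophy and fuel use, read 7.39, 7.59, 7.23 and 7.90 in trained and 6.02, 6.33, 7.59 and 7.30 in sedentary rats. In Zeb2, Prkaa2 and Foxo1 sedentary rats 3 and 4 lay within or close to the trained range, and in Sh3bgrl1 they lay below it. Without sedentary rats 1 and 2 Ppargc1a differed by 0.18, Rgs5 by 0.21, RT1-Bb by 1.11, Hk2 by -0.16 and Pdk4 by -0.27. List medians without them were 0.40 for class II genes, 0.28 for endothelial, 0.29 for fast fibre and 0.16 for proliferation genes, and -0.24 for PPAR targets, -0.17 for protein breakdown, -0.12 for adipocyte markers and -0.06 for clock genes. They were within 0.1 of 0 for angiogenic ligands (0.01), the mitochondrial ribosome (0.0061), calcineurin regulators (-0.03), glycolysis (0.03), insulin signalling (-0.0074), biogenesis regulators (-0.04), complex I (0.08) and complexes III and IV (0.08). With the beta-actin index in the model, differences also moved by over 1.5 times for Col3a1 (0.53), Vim (0.41), Timp2 (0.28), Ctsl (0.33), Igf1 (0.23), Mfn2 (-0.20), Pdk2 (-0.18), Gstt3 (-0.94), Pebp1 (-0.22), Pola2 (-0.54), Hk2 (-0.10) and Pdk4 (0.13), and for Col6a3 (0.51). At the other end Nnat, neuronatin, read 5.95, 7.11, 6.34 and 6.60 in trained and 8.47, 7.45, 7.85 and 7.65 in sedentary rats, a difference of -1.35 (SE 0.40), and Gstt3, a glutathione transferase, 6.65, 7.24, 6.09 and 7.28 in trained and 7.99, 8.79, 7.52 and 8.81 in sedentary rats, a difference of -1.46 (SE 0.56), both with groups apart.

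Whether the LCR response differs from that of the HCR line was tested with the interaction, LCR response minus HCR response. In limma's test 0 of 31042 probe sets passed (0%), 5673 had an unadjusted p under 0.05 (18.3%), and the counts under other settings were 1 after quantile normalization or median centring, 22 without the arrays HCR sedentary 2 and HCR trained 3, and 233 with array weights. Cox7a1 differed by 1.67 in LCR and 2.00 in HCR rats, an interaction of -0.32 (adjusted p = 0.602 by limma). Collagens had a median of 0.71 in LCR and -0.89 in HCR rats, and the HCR value was -0.25 without HCR sedentary 2, an array of high collagen signal (list mean 1.68), and HCR trained 3, one of low slow fibre signal (list mean -2.43). Macrophage markers had 0.51 in LCR and -0.43 in HCR rats, and the HCR median without those 2 arrays was -0.01. Mitochondrial ribosome genes had a median of -0.06 in LCR and 0.20 in HCR rats, which was 0.14 without those arrays, and complex I genes 0.04 in LCR and 0.22 in HCR rats, which was 0.12 without them. Cd9 differed by 1.05 in LCR and -0.10 in HCR rats and Mfn2 by -0.36 in LCR and 0.09 in HCR rats, and neither interaction passed after adjustment.

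The number of LCR differences that passed depended on which HCR arrays entered the fit. Without HCR sedentary 2 and HCR trained 3, 178 of 31042 probe sets passed for LCR training (0.573%), 74 higher and 104 lower. All 178 had groups that did not overlap, against 8.5% of all probe sets. These 178 were picked by small p on the same LCR arrays, so their separation is part of how they were found. They named 135 genes, 19 of them in the lists, including Pecam1, Eng and Icam2 of endothelium, Nfatc2, Mef2d and Camk2b of fibre-type signalling, Vim and S100a4 of fibroblasts, Dcn, Nrp1, Tsc1 and Hlf. With array weights 321 passed (1.03%), 150 higher and 171 lower, and 114 probe sets were common to both fits. Neither count held when 1 LCR rat was left out. The first was 0 without trained rat 1, trained rat 2 or sedentary rat 1, 3 without trained rat 3, 5 without sedentary rat 4, 69 and 74 without sedentary rat 2 or 3, and 391 without trained rat 4. The count with array weights was 1 without sedentary rat 4, 6 without sedentary rat 3, 152, 163 and 154 without trained rat 1, trained rat 2 or sedentary rat 1, 348 without trained rat 3, 616 without sedentary rat 2 and 812 without trained rat 4. Among the genes of smallest p without the 2 HCR arrays, Pebp1, an inhibitor of Raf kinase, read 12.20, 12.16, 12.21 and 12.29 in trained and 12.66, 12.60, 12.53 and 12.69 in sedentary rats, a difference of -0.41, and Tbrg4, a mitochondrial RNA regulator, differed by -0.44, with 8.98 to 9.06 in trained and 9.34 to 9.63 in sedentary rats. Ptn, the growth factor pleiotrophin, differed by 0.57, with 5.92 to 6.05 in trained and 5.26 to 5.65 in sedentary rats, and Ccr1, a chemokine receptor, by 0.59. The sedentary means of Ptn and Ccr1, 5.42 and 5.17, were below the 40th percentile of probe set means, 5.61. Pola2, a subunit of the DNA polymerase alpha-primase complex, differed by -0.84, with 8.33 to 8.81 in trained and 9.19 to 9.52 in sedentary rats.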

How the data were processed

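Total RNA from about 20 mg of soleus was hybridised to 1 expression array per rat, per the labels' protocols. The deposited values are log2 signals per probe set, normalized by the authors with RMA, and limma is also named in the submitters' processing notes; versions of both are not given in the sources used here. No raw intensities or scan batches were used here. From the 31099 probe sets deposited, 57 controls were left out. A probe set was given a gene name where the platform annotation holds 1 symbol (20826), not where it holds several (436) or none (9780), and 20758 matched a RefSeq symbol.

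The log2 values as deposited by the authors were fitted in limma 3.58.1 (R 4.3.3) with a mean for each of the 4 groups over 16 arrays, and LCR trained minus LCR sedentary was tested with moderated variances and Benjamini-Hochberg adjustment over 31042 probe sets. Labels do not say that rats come from separate cages or litters, and the number of arrays, 4 a group, limits the precision. Named genes are, among genes whose mean in the brighter LCR group reached the 40th percentile of probe sets and at their probe set of smallest p, those that passed, the 15 of smallest p in each direction, and the 6 of largest difference in each direction with an unadjusted p under 0.05. At the brightest probe set they are the 2 of smallest p in each list, 16 key genes and the relative Cox7a2l (Cox7a2 is not reported here), with the 8 of smallest p in the fit without 2 HCR arrays. Any other gene in the text is a marker or an example of a list, picked with its values in view. The rat groups, the members and the lists were chosen with earlier results of these data known. Alternatives covered the normalization, the filter on dim probe sets, the arrays in the fit, array weights, covariates, the replicate block and each LCR rat left out. The code was tested on simulated data.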

Additional observations from a re-analysis of the deposited data

Results flagged for a closer look

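In 25 of 398 groups of 4 values examined, 1 rat stood farther from the other 3 than Dixon's 95% critical value for 4 samples allows; chance does so in about 1 group in 20. None of these was given an explanation.

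Among genes, trained rat 2 stood apart in Tbrg4 (8.976), Myl1 (14.23), Pdk2 (11.49) and Ppargc1a (7.97), and trained rat 4 in Cox11 (5.969), Adrb3 (5.918) and Adipoq (7.837). Sedentary rat 1 stood apart in Psmc6 (8.813), Vim (11.3), Dgat1 (9.2), Adipoq (9.02) and Tfam (9.752). Sedentary rat 3 stood apart in Styxl1 (5.96), Gpx3 (10.38, against 11.04 to 11.08 in the other sedentary rats), Pgam1 (9.756) and Ucp3 (8.505), and sedentary rat 4 in Eng (8.288).

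Among list means relative to the 16-array average, trained rat 2 stood apart in fatty acid uptake and lipid droplets (-0.16), mitochondrial fusion, fission and mitophagy (-0.1167) and cholesterol synthesis (0.05516). Sedentary rat 1 stood apart in insulin signalling (-0.03691), and sedentary rat 2 in matrix remodelling (-0.02993), macrophage markers (0.02736) and mitochondrial carriers (0.1224). The beta-actin index of trained rat 2 was 1.062, against 1.331 to 1.363 in the other trained rats.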

How the results depend on the processing

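The number of probe sets past the threshold for LCR training was 1 as reported, and 0 after quantile normalization, after median centring, with only the 8 LCR arrays, with the replicate block, with the beta-actin or GAPDH index as covariate and with an unmoderated linear model. Leaving HCR sedentary 2 and HCR trained 3 out gave 178, array weights gave 321, and single LCR rats left out gave 0 to 1. With array weights, leaving out single LCR rats gave 1 to 812, and without the 2 HCR arrays 0 to 391. The interaction gave 0 as reported, 1 after quantile normalization, 1 after median centring, 22 without those 2 HCR arrays and 233 with array weights. The causes were not tested. Replicate numbers are shared by the groups, but same-numbered LCR rats deviated together with correlations of only -0.132 to 0.0745, so the numbers were not taken as pairs; with the replicate block Cox7a1 had an adjusted p of 0.252 by limma.

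Of 2789 alternatives for named genes 2659 kept the direction and the side of the threshold, 81 newly passed (45 with array weights, 36 without the 2 HCR arrays), 12 no longer passed, all of them for Cox7a1, and 37 turned the direction, in 10 genes that had not passed. With array weights Ucp3 was at -0.0712, Slc2a4 at 0.0359 and Myh7 at -0.0055. With the beta-actin index Hk2 was at -0.10, Myh4 at -0.80, Ucp3 at -0.13 and Slc2a4 at 0.23, and with the GAPDH index Ucp3 was at -0.0210 and Slc2a4 at 0.00039. Without LCR sedentary 1 and 2 Hk2 was at -0.16, Pdk4 at -0.27, Vegfa at -0.0416, Ucp3 at -0.28, Tfam at -0.0187, Slc2a4 at 0.0823 and Myh7 at -0.0259. Median centring gave -0.0015 for Tfam and -0.0036 for Myh7, and quantile normalization -0.0038 for Cs. Over single rats left out Myh1 ran from -0.0416 to 0.12, Ucp3 from -0.12 to 0.44, Tfam from -0.0262 to 0.0292, Cs from -0.0201 to 0.0453, Slc2a4 from -0.0983 to 0.0789 and Myh7 from -0.0139 to 0.0278. Of 644 list medians under alternatives 19 moved, that is, by at least the SD of the list mean within the LCR groups. A change of sign alone did not count as a move, and some small medians did change sign. Citric acid cycle genes went from -0.02 to 0.03 without trained rat 2, and interferon-responsive genes from 0.07 to -0.05 without trained rat 4. With the mean over all probe sets of each gene, insulin signalling went from -0.05 to 0.03.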

Other observations

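Medians of further lists are given as values. The 18 interferon-responsive genes had a median difference of 0.07, which ran from -0.05 without trained rat 4 to 0.16 without trained rat 2, with 0 at an unadjusted p under 0.05. Cholesterol synthesis genes had a median of -0.01 over 18 genes, which was 0.0073 without trained rat 1 and 0.04 without sedentary rats 1 and 2. Neuromuscular junction genes had one of -0.03 over 13, which ran from -0.12 without trained rat 3 to 0.04 without trained rat 2, among them Chrnb1, a subunit of the acetylcholine receptor, at 0.50, with another probe set of the opposite sign. Genes of amino acid breakdown had a positive difference in 10 of 25, at a median of -0.05. That median was 0.0095 without sedentary rat 2 and -0.11 without trained rat 1. Groups were apart in 5 of these genes, all lower, beside 6.82% lower over all genes. Bcat2, the mitochondrial enzyme that starts the breakdown of branched-chain amino acids, read 8.46, 8.15, 8.26 and 8.28 in trained rats and 8.75, 8.91, 8.64 and 8.50 in sedentary rats, a difference of -0.41. Of 28 mitochondrial carriers 9 had a positive difference, at a median of -0.07, and Slc25a24, a carrier of ATP and phosphate, differed by 0.60.

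Chosen after its values were seen, Rora, a nuclear receptor of the clock, read 7.09, 7.31, 6.79 and 7.33 in trained rats and 5.44, 5.61, 7.48 and 7.08 in sedentary rats, so that sedentary rats 1 and 2 were low, as they were in Zeb2, Prkaa2 and Foxo1.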
